A study of Mus musculus with 4 samples.

Results

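Fatty acid oxidation and ketogenesis were described through 32 genes, chosen by name from the 37021 genes on a mouse expression array. All 32 were found, on 45 of the 56605 probes, and 22 of them had a single probe. The brightest probe of a gene, with the highest mean signal over the 4 arrays, stood for it, and the further probes of the other 10 genes served as a check. The members were the genes that take up, bind and activate fatty acids, carry them into mitochondria and oxidize them there or in peroxisomes, together with acyl-CoA thioesterases, a ketone body enzyme and genes that respond to fasting or lipid load.

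The study examined the part of glycine N-methyltransferase (GNMT) in kidney injury by aristolochic acid I (AAI), a nephrotoxin of Aristolochia plants, and its arrays compared livers of AAI-treated and control wild-type mice of both sexes. The mice were C57BL/6, with an age of 6 weeks in the labels. Females received AAI at 5 mg/kg/day and males at 2 mg/kg/day, dissolved in corn oil and injected i.p. on 5 days a week for 3 weeks, and the controls of each sex received corn oil only. Liver RNA of 5 mice was mixed in equal amounts and hybridized to 1 array per group. There was therefore no replicate error and no test. A difference is given against the technical spread, taken as the median SD among probes that measure the same gene, which was 0.25 in females, 0.24 in males and 0.23 between the corn oil pools. Sex and dose cannot be told apart in the response to AAI, and the difference between the responses of the sexes was not tested.

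Fatty acids enter hepatocytes with the help of CD36, are bound by FABP1 and activated to acyl-CoA by ACSL1. Carnitine carries the acyl group across the inner mitochondrial membrane, where the enzymes of the beta-oxidation spiral shorten it to acetyl-CoA, the substrate of ketone body synthesis. Peroxisomes shorten other acyl chains, and the nuclear receptor PPARα activates many of these genes in the fasted liver.

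All 45 member probes were well above background on every array, except for 1 further Acsl1 probe in the male corn oil pool. No member spot was saturated or marked as an outlier. Of 10 hepatocyte marker genes, 9 were on the array under their names, and all 9 were above background in each pool. Their summed level, in log2, lay between 20.75 and 20.94. Markers of other tissues were also present and differed between pools. The summed log2 level of 12 skeletal muscle genes was 10.63 in the corn oil pool and 15.40 in the AAI pool of females, and 12.44 and 18.38 in those of males. The summed levels of white fat, brown fat and adrenal cortex markers were also highest in AAI-treated males.

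The gene starts of 4 members are shown because these genes carry the contrasts below. Acot3, Pdk4 and Cd36 were at least 2-fold higher in AAI-treated than in corn oil-treated males, and Acot1, of the same gene cluster as Acot3, was not. The sequences are the 250 bases before the start of the RefSeq transcript on GRCm38.p6, at chr12:84009252-84009501 and chr12:84051894-84052143 on the plus strand and at chr6:5496279-5496528 and chr5:17835897-17836146 on the minus strand, each written 5′ to 3′ along the gene. Capitals mark the CCAAT box, as CCAAT or as its reverse complement ATTGG.
Acot1: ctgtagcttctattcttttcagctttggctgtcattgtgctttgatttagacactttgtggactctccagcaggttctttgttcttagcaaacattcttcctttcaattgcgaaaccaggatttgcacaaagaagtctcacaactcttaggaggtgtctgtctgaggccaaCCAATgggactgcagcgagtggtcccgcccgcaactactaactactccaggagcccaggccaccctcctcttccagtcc
Acot3: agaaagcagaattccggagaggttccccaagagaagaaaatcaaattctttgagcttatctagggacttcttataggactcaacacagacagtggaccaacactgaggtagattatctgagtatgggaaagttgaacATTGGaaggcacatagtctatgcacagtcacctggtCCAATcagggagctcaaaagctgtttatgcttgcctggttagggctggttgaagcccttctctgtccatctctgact
Pdk4: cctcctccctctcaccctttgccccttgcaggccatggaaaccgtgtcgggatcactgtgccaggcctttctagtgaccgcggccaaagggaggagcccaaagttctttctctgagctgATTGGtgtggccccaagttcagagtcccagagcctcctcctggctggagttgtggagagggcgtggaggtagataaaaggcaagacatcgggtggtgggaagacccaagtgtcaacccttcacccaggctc
Cd36: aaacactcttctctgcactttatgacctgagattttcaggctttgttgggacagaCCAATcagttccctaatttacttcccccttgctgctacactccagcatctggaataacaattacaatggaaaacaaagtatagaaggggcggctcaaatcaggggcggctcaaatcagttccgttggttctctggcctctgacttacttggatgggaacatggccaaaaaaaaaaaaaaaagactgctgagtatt
A CCAAT box lay 79 bases before the start in Acot1, 77 and 113 in Acot3, 131 in Pdk4 and 195 in Cd36. For a second start of Acot3 it lay at 84 and 120 bases. Acsl1, which was at least 2-fold lower in males, is not shown. It had 2 windows, 1 without a CCAAT box and 1 with it at 49 and 172 bases. Of the 28 members with such a window, 15 held the letters CCAAT on either strand, against 37.5% of the 27025 genes in the table. The direct repeat bound by PPARα with its partner RXR, AGGTCA followed after any 1 base by AGGTCA, was written in full on either strand in 0 of the 28 members and in 0.0407% of all genes. Written as AGGNCA on both sides of that base, it was found in Fabp1 and in 0.400% of all genes. These are matches of letters in a short window, and the absence of a match says only that the letters are not there.

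Between AAI-treated and corn oil-treated mice, few members differed by 2-fold. In females, Vnn1 was the 1 member at least 2-fold lower and 0 of 32 were at least 2-fold higher. Of the 31682 genes measured in females, 3.09% were 2-fold lower and 1.37% were 2-fold higher. In males, Acot3, Pdk4 and Cd36 were at least 2-fold higher and Acsl1 was at least 2-fold lower, against 3.51% of 30539 genes higher and 4.59% lower. The median log2 ratio of the 32 members was -0.07 in females and -0.26 in males, and that of all genes was 0.04 and 0.00. Beyond the spread between probes, 5 members were higher and 10 were lower in females, and 5 were higher and 16 were lower in males. Over all genes the shares higher and lower beyond that spread were 29.3% and 24.8% in females and 28.4% and 27.2% in males, against 15.6% and 31.3% of the members in females and 15.6% and 50% in males. In RNA of whole tissue, fewer cells of a type and less RNA per cell cannot be told apart.

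**Figure D1:**
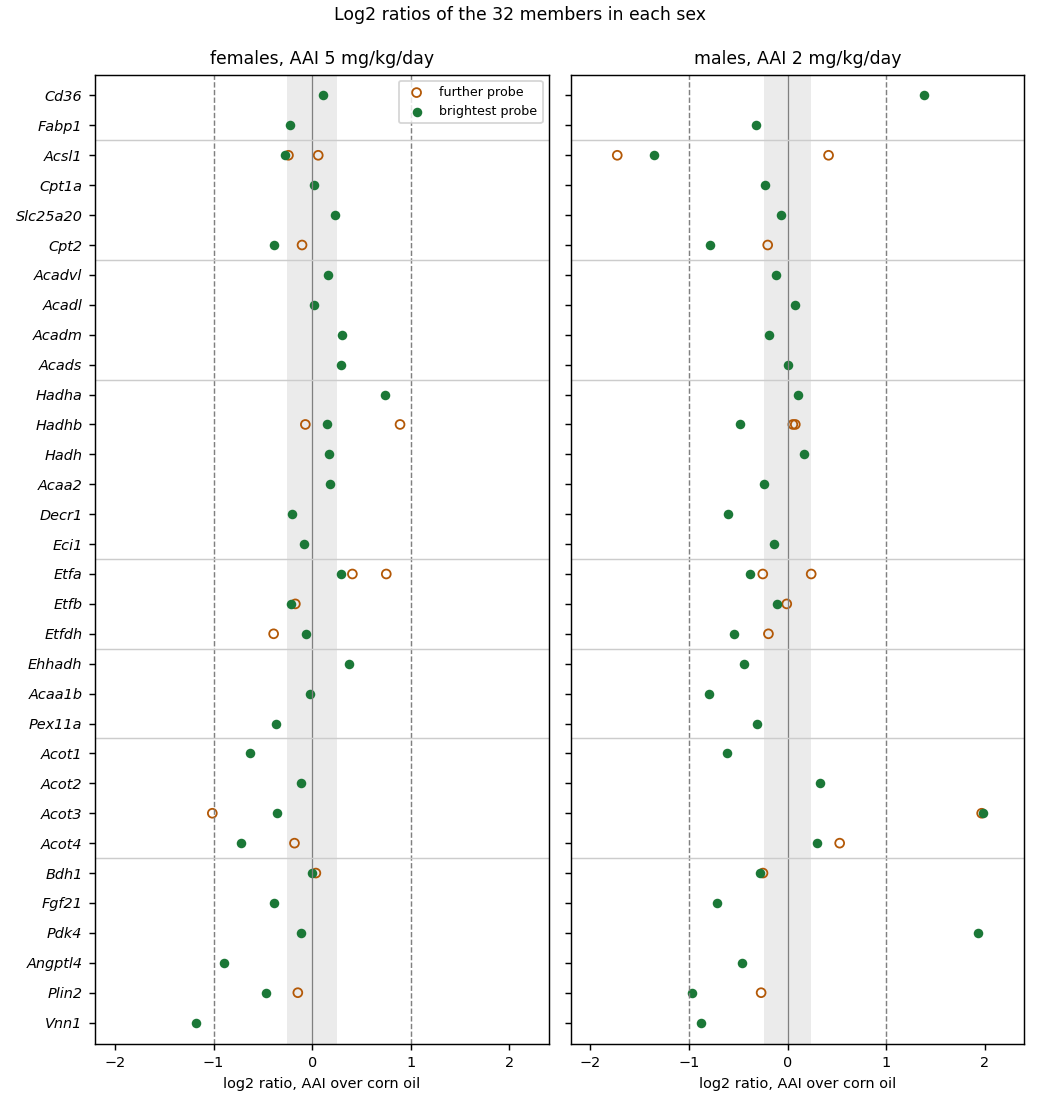
Log2 ratio of AAI over corn oil for each member in females (left) and males (right). Filled points are brightest probes, open points further probes, the grey band is the SD between probes and dashed lines mark 2-fold. Vnn1 lies beyond the lower line in females, and Acsl1, Acot3, Pdk4 and Cd36 lie beyond a line in males.

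Both uptake and activation had a member past 2-fold in males, in opposite directions. The fatty acid translocase Cd36 had a log2 signal of 11.44 with corn oil and 11.55 with AAI in females, and of 10.14 with corn oil and 11.52 with AAI in males. The corn oil-treated males stood alone at the low end, and the other 3 pools were alike. The log2 ratio was 0.11 in females and 1.38 in males, a 2.61-fold difference in males that lay between 1.35 and 1.46 under the alternative processings. In the same males the median log2 ratio was 5.88 for skeletal muscle markers and 2.48 for white fat markers, and in females 4.65 and 0.26, and their part in the Cd36 values was not tested. Its probe (NM_007643) lies on chromosome 5 of mouse build mm9, from 17288600 to 17288659. Fabp1, the fatty acid binding protein of the hepatocyte cytosol, had log2 ratios of -0.23 and -0.32.

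Acsl1, which joins long-chain fatty acids to coenzyme A, measured 15.03 with corn oil and 14.75 with AAI in females and 16.06 and 14.70 in males, as log2 signals. Here the corn oil-treated males stood alone at the high end. The log2 ratio was -0.28 in females and -1.36 in males, or 2.57-fold lower in males. The probe (NM_007981) lies on chromosome 8 of mm9, from 47621232 to 47621291. A further probe of the same transcript gave -0.24 and -1.73. The remaining probe, assigned to another transcript, gave 0.06 in females and 0.41 in males, where it was not well above background in the corn oil pool.

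The carnitine shuttle was lower beyond the spread between probes at 1 of its steps, Cpt2, in both sexes with the brightest probe. Cpt1a, the regulated enzyme that forms acylcarnitine, had log2 ratios of 0.02 in females and -0.23 in males. The translocase Slc25a20 had 0.23 and -0.07, within the spread in both sexes. Cpt2, which returns the acyl group to coenzyme A inside mitochondria, had -0.39 and -0.79, and its log2 signal in males was 14.70 with corn oil and 13.92 with AAI. Its second probe gave only -0.10 and -0.20, so that the size of the Cpt2 difference depended on the probe.

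The first dehydrogenation of the spiral changed little. The log2 ratios of Acadvl, Acadl, Acadm and Acads, which act on very long, long, medium and short chains, lay between 0.02 and 0.30 in females and between -0.19 and 0.08 in males. In males all 4 were within the spread between probes, against 44.4% of all genes. In females Acadm (0.30) and Acads (0.29) were just outside it.

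Of the 6 genes of the later steps, 5 were within the spread in females, against 45.9% of all genes. The exception was Hadha, the alpha subunit of the mitochondrial trifunctional protein, with log2 signals of 10.12 and 10.85 in the female pools and of 10.24 and 10.35 in the male pools. AAI-treated females were the highest pool, 1.67-fold above their corn oil control. The beta subunit Hadhb had 0.15 in females and -0.48 in males, and its further probes gave 0.89 and -0.07 in females and 0.05 and 0.08 in males, a disagreement larger than either ratio of the brightest probe. Decr1, which handles unsaturated chains, had -0.21 and -0.61. The dehydrogenase Hadh (0.17 and 0.17), the thiolase Acaa2 (0.18 and -0.24) and the isomerase Eci1 (-0.08 and -0.14) were within the spread in both sexes.

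Electrons from the dehydrogenases pass through the electron transfer flavoprotein and its oxidoreductase. The subunit Etfa had log2 ratios of 0.29 in females and -0.38 in males, and Etfb had -0.21 and -0.11. The oxidoreductase Etfdh had -0.06 and -0.55. The 3 probes of Etfa were all higher in females, at 0.29, 0.41 and 0.75, and did not share a direction in males, at -0.38, -0.25 and 0.24.

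The 3 peroxisomal members were all lower in AAI-treated males beyond the spread, against 27.2% of all genes. The thiolase Acaa1b measured 14.72 with corn oil and 14.70 with AAI in females and 15.51 and 14.72 in males, as log2 signals. Only the corn oil-treated males differed, and the log2 ratio was -0.03 in females and -0.79 in males. The bifunctional enzyme Ehhadh had 0.37 in females and -0.44 in males. Pex11a, which takes part in peroxisome division, had -0.37 and -0.31.

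The acyl-CoA thioesterases release free fatty acids from coenzyme A. In females all 4 ratios were negative, 3 of them beyond the spread, against 24.8% of all genes lower beyond it. In males 3 were higher and 1 was lower beyond the spread, against 28.4% and 27.2% of all genes. Acot3, a peroxisomal enzyme, measured 12.31 with corn oil and 11.96 with AAI in females, and its male pools were at 10.83 and 12.81 in log2 signal. The corn oil-treated males were the lowest and the AAI-treated males the highest of the 4 pools. Its log2 ratio was -0.36 in females and 1.98 in males, a 3.95-fold difference in males, and a further probe gave -1.01 and 1.97. In males the ratio lay between 1.75 and 2.01 under the alternative processings, beside the marker medians of 5.88 for muscle and 2.48 for white fat, whose part was not tested. The probe (NM_134246) lies on chromosome 12 of mm9, from 85400452 to 85400511.

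The cytosolic enzyme Acot1 was lower in both sexes, with log2 signals of 14.25 and 13.62 in the female pools and of 13.96 and 13.34 in the male pools. Its log2 ratios were -0.63 and -0.62. The mitochondrial Acot2 had -0.11 and 0.33. The peroxisomal Acot4 had -0.72 in females and 0.29 in males, with a further probe at -0.18 and 0.53.

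These genes lie side by side on chromosome 12 in the order Acot2, Acot1, Acot4, Acot3, Acot5 and Acot6, with the outermost probes 117 kb apart. Acot5 and Acot6, which are not members, had log2 ratios of -0.54 and -0.16 in females and of 0.51 and -0.999 in males with their brightest probes. Their further probes did not share these ratios, with -0.25 for Acot5 and -0.05 and 0.19 for Acot6 in males. Among the members in males, lower Acot1 thus lay between Acot2 and Acot4, which were higher. Because the genes are close relatives, the probe sequences were compared. Among 49 pairs of probes for different genes of the cluster, at most 30 of 60 bases were equal at any 1 offset, and the longest equal run had 9 bases.

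**Figure D2:**
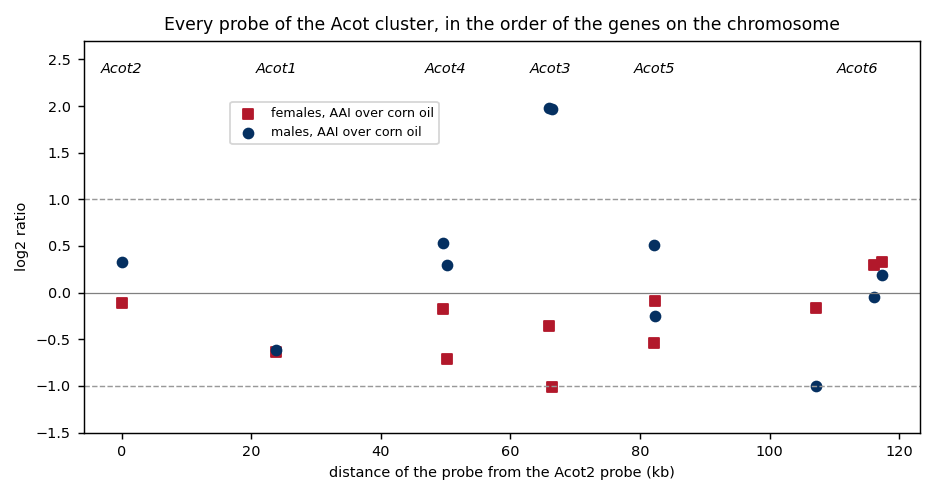
Log2 ratio of AAI over corn oil for each of the 11 probes of the Acot cluster, against the distance from the Acot2 probe in kb, with females as squares and males as circles and dashed lines at 2-fold. Both Acot3 probes lie near 2 in males (1.98 and 1.97) and below 0 in females.

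Of the 6 ketone body, fasting and lipid storage genes, 4 were lower beyond the spread in females, and in males 5 were lower and Pdk4 was higher. Of all genes, 24.8% were lower beyond it in females, and 27.2% were lower and 28.4% higher in males. Pdk4, the kinase that shuts pyruvate out of the citric acid cycle, measured 10.16 with corn oil and 10.05 with AAI in females, and 8.60 and 10.52 in males, as log2 signals. The corn oil-treated males were again the pool that stood apart, on the low side. The log2 ratio was -0.11 in females and 1.93 in males, a 3.81-fold difference in males that lay between 1.76 and 1.98 under the alternatives. The muscle and white fat markers, with medians of 5.88 and 2.48 in males and of 4.65 and 0.26 in females, moved with it in males, and their part was not tested. The probe (NM_013743) lies on chromosome 6 of mm9, from 5433441 to 5433500.

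Vnn1, a pantetheinase that is a target of PPARα in liver, had log2 signals of 10.75 and 10.77 in the female and male corn oil pools and of 9.57 and 9.89 in the AAI pools. Both AAI pools were below both corn oil pools. It was 2.27-fold lower in females and 1.84-fold lower in males, with log2 ratios of -1.18 and -0.88, and in females the ratio was closer to 0 than the 2-fold line under 2 alternatives (-0.91 and -0.83). The probe (NM_011704) lies on chromosome 10 of mm9, from 23624524 to 23624583.

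Angptl4, the secreted inhibitor of lipoprotein lipase, also had both AAI pools below both corn oil pools. Its log2 signals were 14.93 and 14.65 in the corn oil pools of females and males and 14.04 and 14.18 in the AAI pools. Its log2 ratios were -0.89 and -0.46. The lipid droplet protein Plin2 had 14.72 and 14.73 with corn oil and 14.25 and 13.76 with AAI. Its ratios were -0.47 and -0.97, and a second probe gave -0.15 and -0.27. The hormone Fgf21 had 7.34 and 7.12 with corn oil and 6.95 and 6.41 with AAI, with ratios of -0.39 and -0.71.

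Bdh1, which reduces acetoacetate to 3-hydroxybutyrate and was the ketone body enzyme among the members, had log2 ratios of 0.00 in females and -0.28 in males. Beyond the spread in both sexes, 8 members were lower with AAI by their brightest probes (Acsl1, Cpt2, Pex11a, Acot1, Fgf21, Angptl4, Plin2 and Vnn1) and 0 were higher in both. The further probe of Cpt2 (-0.10 in females and -0.20 in males) was within the spread in both sexes. In females the further probes of Plin2 (-0.15) and Acsl1 (-0.24 and 0.06) were also within it. Of 30115 genes measured in both sexes, 9.73% were lower in both and 11.4% were higher in both. With their brightest probes, Acot3 and Acot4 had negative ratios in females and positive ones in males, beyond the spread in both. These are 2 of 32 members, against 4.91% of those 30115 genes. Etfa and Ehhadh had the opposite signs beyond the spread, also 2 of 32 members, against 5.69% of those genes. The Etfa probes did not share a direction in males.

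**Figure D3:**
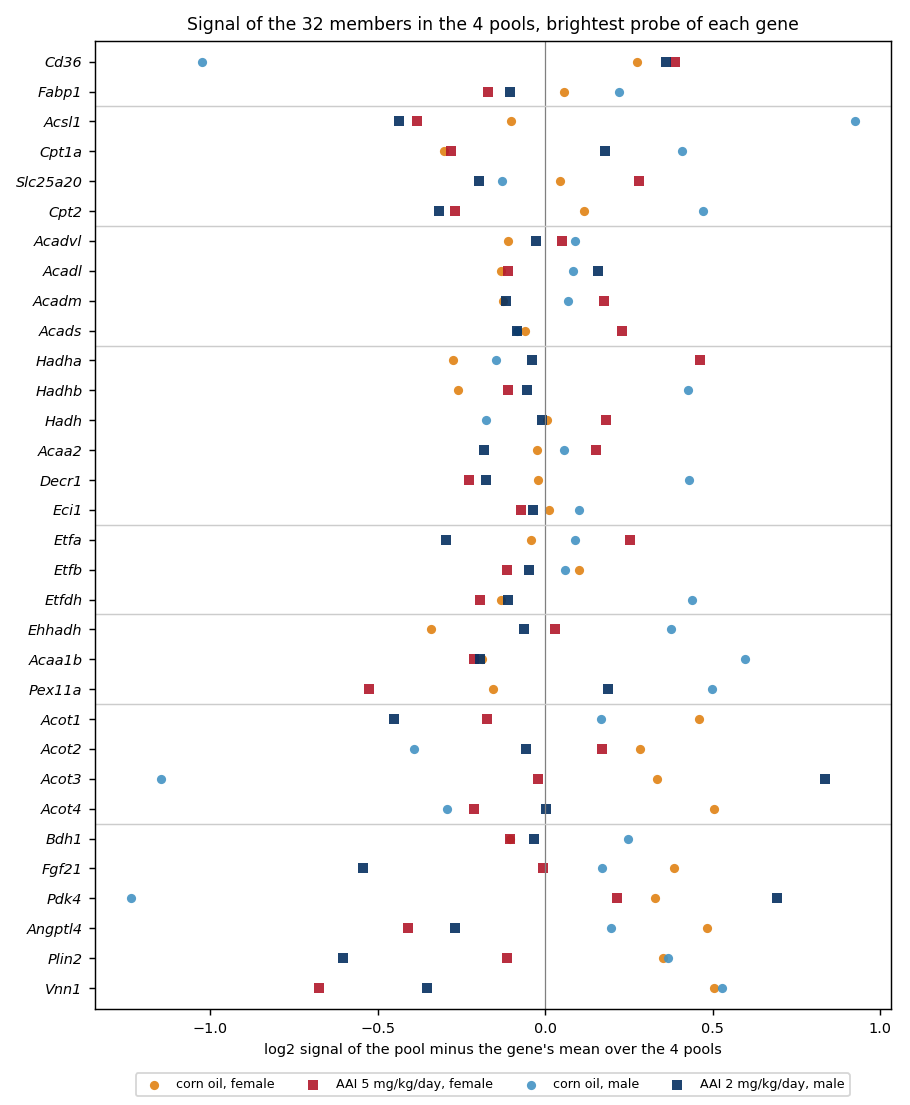
Log2 signal of each member in the 4 pools, as the difference from the mean of the gene over the pools, with circles for corn oil and squares for AAI and grey lines between functional groups. For Cd36, Acot3 and Pdk4 the corn oil-treated males lie lowest, for Acsl1 and Acaa1b they lie highest, and for Vnn1 and Angptl4 both AAI pools lie below both corn oil pools.

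The corn oil pools of the sexes were compared to see which members differed between mice that received corn oil only. At least 2-fold differences were found in 4 of 32 members, which is 12.5%, against 5.69% of 30891 genes. Acsl1 was 2.04-fold higher in males (3.83% of genes were), and Pdk4, Acot3 and Cd36 were 2.96-fold, 2.79-fold and 2.46-fold lower in males (1.86% of genes were). The Acsl1 log2 difference of 1.03 lay at the 2-fold line, and under 5 of the alternatives it was between 0.65 and 0.88.

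These are the 4 members that were past 2-fold between the male pools. Both comparisons share the array of corn oil-treated males, so that their opposite signs are not independent. The comparison of the AAI pools with each other does not use it. There the log2 difference of males minus females was 0.86 for Acot3, 0.48 for Pdk4, -0.03 for Cd36 and -0.05 for Acsl1. The AAI-treated males also differed from the corn oil-treated females by 0.50, 0.36, 0.09 and -0.33 in these genes.

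Between the AAI pools, 0 of 32 members differed by 2-fold with their brightest probe, against 4.42% of 31494 genes. The second Acot3 probe did, at 1.51, and in the mean over probes Acot3 was past 2-fold. The SD of the sex difference over the 32 members was 0.63 between corn oil pools and 0.35 between AAI pools. Over the 28234 genes above background on every array it was 0.52 and 0.51. Among those genes 1330 differed by 2-fold between the corn oil pools and 168 of them, or 12.6%, did so in the same direction between the AAI pools. For the members these numbers were 4 and 0, and 4 genes are too few to set 0 against that share. The SD over the members was smaller between AAI pools under each of the 7 alternatives that change a ratio. These alternatives reprocess the same 4 arrays and are not independent of each other. The SD between corn oil pools includes the 4 members past 2-fold, in which corn oil-treated males were the lowest or highest pool. The median absolute difference of the members was 0.29 between corn oil pools and 0.22 between AAI pools, against 0.25 and 0.25 over those 28234 genes. In the mean over probes it was 0.23 and 0.25 for the members, so that this measure did not shrink under every alternative.

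**Figure D4:**
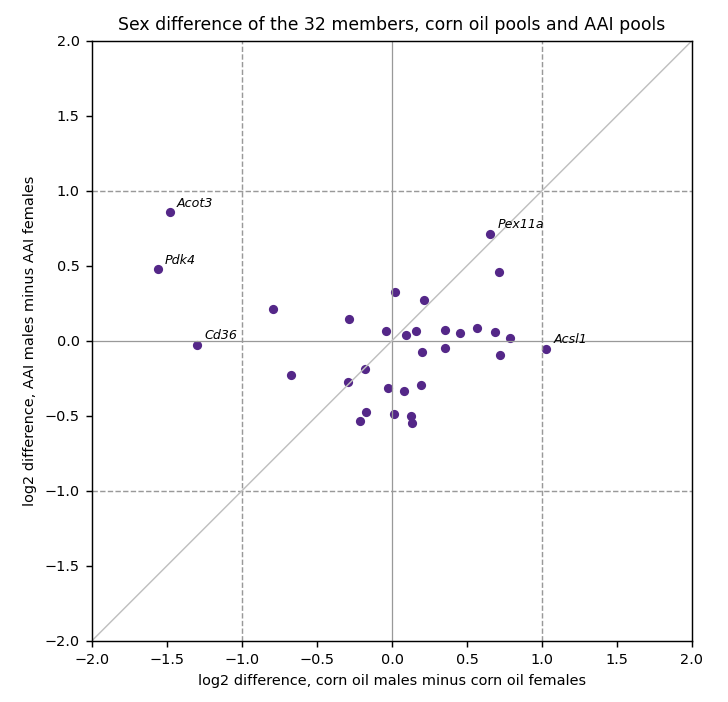
Log2 difference of males minus females for each member between the AAI pools (vertical) and between the corn oil pools (horizontal), with dashed lines at 2-fold and a grey line of equality. The members spread from -1.56 to 1.03 between corn oil pools and from -0.55 to 0.86 between AAI pools.

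Other members that differed between corn oil pools beyond the spread were less far apart. The peroxisomal Acaa1b, Ehhadh and Pex11a were all higher in corn oil-treated males, by 0.79, 0.72 and 0.65 in log2. Of all genes, 25.8% were higher and 28.6% lower in those males beyond the spread. Cpt1a (0.71), Hadhb (0.68), Etfdh (0.57) and Decr1 (0.45) were also higher in males with their brightest probes. The second Etfdh probe had the opposite sign (-0.31), and the other Hadhb probes gave 0.19 and 0.04. Under the alternatives Etfdh went down to 0.13, Decr1 to 0.12 and Hadhb to 0.30. All 4 thioesterases were lower in males, with Acot4 at -0.80, Acot2 at -0.67 and Acot1 at -0.29 beside Acot3. In the AAI pools Acaa1b, Ehhadh and Etfdh were 0.02, -0.09 and 0.08 apart, while Pex11a (0.71) and Cpt1a (0.46) still were higher in males.

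The wider pathway was described with 110 further genes of fatty acid oxidation, ketone bodies and their regulators, all on the array. In females 2 of 110 were at least 2-fold higher, Cpt1b at 1.13 in log2 and Retsat at 1.02, and 0 were lower, against 1.37% and 3.09% of all genes. The median log2 ratio of the 110 was 0.01. In males 6 were higher and 3 lower, against 3.51% and 4.59% of all genes, with a median of -0.09. The 6 were Cpt1b (3.43), the muscle isoform of carnitine palmitoyltransferase, Fabp4 (3.06) and Cidec (2.48), which are abundant in fat, Oxct1 (1.86), which uses ketone bodies outside the liver, the coactivator Ppargc1a (1.29) and the peroxisomal transporter Abcd2 (1.22). The 3 were Nudt7 (-2.77), a peroxisomal coenzyme A hydrolase, the carnitine octanoyltransferase Crot (-1.60) and the glycerol channel Aqp7 (-1.02).

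Several of these genes also had the pattern of Acsl1 or Pdk4, with the corn oil-treated males apart. Nudt7 measured 16.81 in log2 signal in that pool, and 13.78 in the female corn oil pool, 13.82 in the female AAI pool and 14.03 in the male AAI pool. Crot was at 16.07 there, against 14.88, 15.25 and 14.47. On the low side, Abcd2 was at 7.07, against 8.82, 8.61 and 8.30, and Ppargc1a at 8.33, against 9.96, 9.06 and 9.61. These genes were picked here after their values were seen.

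Among the regulators, Ppara had log2 ratios of -0.60 in females and 0.05 in males. Of the 20 regulator genes, 11 were lower and 1 higher beyond the spread in females, with a median of -0.37, against 24.8% and 29.3% of all genes. In males 6 were lower and 3 higher, with a median of 0.05, against 27.2% and 28.4% of all genes.

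Markers of muscle and fat moved with several of these genes, and Pdk4, Cd36, Cpt1b and Oxct1 are also expressed in muscle or fat. In males the median log2 ratio was 5.88 for skeletal muscle (12 of 12 genes 2-fold higher), 2.48 for white fat (6 of 9), 1.57 for brown fat (5 of 9) and 3.74 for adrenal cortex (4 of 6). In females it was 4.65 for muscle (11 of 12), 0.26 for white fat (3 of 9), 0.11 for brown fat (1 of 8 measured) and 0.00 for adrenal cortex (0 of 5 measured). The muscle actin Acta1 was higher by 8.08 in females and 6.80 in males. Pdk4 and Cd36 had ratios of -0.11 and 0.11 in females and of 1.93 and 1.38 in males, and the part of these tissues was not tested.

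In log2, the summed white fat markers were at 12.58 with corn oil and 12.89 with AAI in females, and at 13.39 and 16.40 in males. In the same order, brown fat markers were at 12.47, 13.14, 14.05 and 16.15, and adrenal cortex markers at 9.94, 9.92, 12.02 and 15.47. In the brown fat sum of corn oil-treated males, Elovl3 alone was at 13.58 and Ucp1 was at 4.98. In AAI-treated males these genes were at 7.87 and 12.89. Between the corn oil pools, males minus females, the marker medians were 1.85 for muscle, 1.15 for white fat and 0.62 for brown fat. Pdk4, Cd36 and Acot3 differed there by -1.56, -1.30 and -1.48, and how these values relate was not tested. The defining markers of brown and white fat, Ucp1 and Adipoq, were higher by 7.91 and 3.63 in males. Each of the 3 lists also held a gene that was at least 2-fold lower in males, Elovl3 (-5.71) in brown fat, Lipe (-1.30) in white fat and Mc2r (-2.07) in adrenal cortex. In females Ucp1 was not well above background in either pool, and Adipoq was not in the corn oil pool. The part of other tissues in the ratios of the members was not tested.

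Of 6 macrophage markers, 4 were lower beyond the spread in females and 5 in males, with median log2 ratios of -1.36 and -0.77. Of all genes, 24.8% in females and 27.2% in males were lower beyond it. Adgre1 was at -1.39 and -0.91, and Marco was at 0.05 and 0.09. Macrophages also express Cd36, and their part in its values was not tested. The 9 hepatocyte markers had medians of 0.04 in females and -0.32 in males, with a range in males from -0.94 to 0.68.

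**Figure D5:**
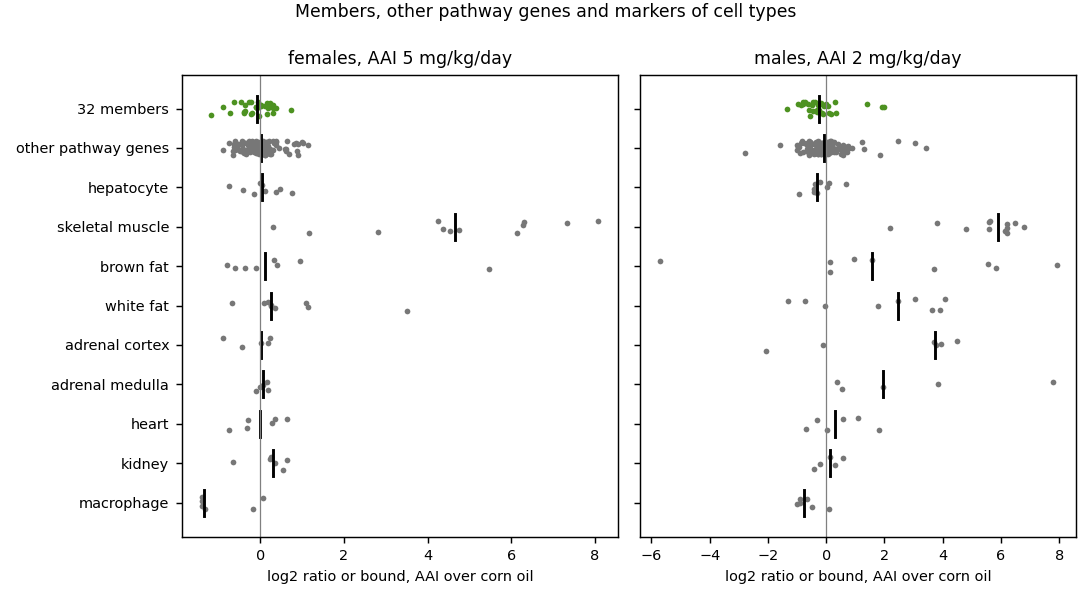
Log2 ratio of AAI over corn oil for the 32 members, the 110 other pathway genes and marker genes of cell types and tissues, in females (left) and males (right), with a bar at each median. The members have medians of -0.07 and -0.26, and the skeletal muscle markers have 4.65 and 5.88.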

How the data were processed

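Liver RNA of 4 groups was measured on 4 single-channel Agilent arrays, 1 pool of 5 mice each. The authors scanned them with Feature Extraction 10.5.1.1 and deposited each spot's intensity, background-subtracted and, on 3 arrays, detrended. These linear intensities were not normalized between arrays. The authors' table adds a quantile-normalized intensity and a detection call. Groups were taken from the labels.

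Control and outlier spots were left out, the spots of a probe averaged, and log2 of the deposited processed intensity quantile normalized over the arrays, as the study's methods state (Python 3.11.15, numpy 2.4.6, pandas 2.3.3; limma 3.58.1 in R 4.3.3 for normexp). A ratio is AAI minus corn oil in log2, and a difference between sexes is males minus females. Genes entered a comparison when well above background on at least 1 array, with a bound where dim on the other. Replicate spots had median SDs of 0.0451 to 0.0845. The single array per group limits the precision. The procedure was tested on simulated data.

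Every member is named. Of the other lists, Ppara, Ppargc1a, up to 5 of the largest changes per sex and the defining markers are named, and some genes under this rule are not reported here. Members and lists were chosen with earlier results of these data known. Comparison of the AAI pools, the motifs and the Acot probe comparison were added after values were seen. Alternatives were 75th percentile and median scaling, normexp (offset 50), signal without detrending, the authors' table, the mean over probes, replaced spots left out, and folds of 1.5 and 3. Probe positions are those of the files (mm9), and upstream sequences are from RefSeq (GRCm38.p6).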

Additional observations from a re-analysis of the deposited data

Results flagged for a closer look

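With its brightest probe, no member had opposite ratios of at least 1.5-fold in females and males, but 3 of the 110 further pathway genes did. The second Acot3 probe did too, at -1.01 and 1.97, and so did the mean of the Acot3 probes, at -0.68 and 1.97. Oxct1, which activates acetoacetate for oxidation outside the liver, had log2 ratios of -0.63 in females and 1.86 in males. The coactivator Ppargc1a had -0.90 and 1.29. Lpin1, a phosphatidate phosphatase and coactivator, had -0.65 and 0.71. The share of all genes with opposite ratios at 1.5-fold was not counted, so these 3 genes cannot be set against it. At the lower bar of the spread between probes, 4.91% of 30115 genes had a negative female ratio with a positive male one. For 5.69% of them the signs were reversed. The difference between the sexes was not tested, and sex and dose cannot be told apart. Oxct1, Ppargc1a and Lpin1 are also active in muscle and fat. The median log2 ratio of skeletal muscle markers was 4.65 in females and 5.88 in males, and that of white fat markers was 0.26 and 2.48. The part of these tissues was not tested.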

How the results depend on the processing

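At 1.5-fold and 3-fold in place of 2-fold, members higher in AAI-treated females were 1 and 0 and members lower 4 and 0. Members lower in AAI-treated males were 8 and 0. Members higher in corn oil-treated males than females were 6 and 0, and members lower there 5 and 0. Members apart between the AAI pools were 2 at 1.5-fold. Of all genes at 1.5-fold, 2473 were higher and 3152 lower of 31682 in females, and 3022 and 3360 of 30539 in males. Between the corn oil pools these were 3090 and 2455 of 30891, and between the AAI pools 2521 and 1934 of 31494. At 3-fold they were 127 and 225 in females, 471 and 510 in males, and 378 and 155 between the corn oil pools. Of the other pathway genes, 13 and 0 were higher and at 1.5-fold 10 were lower in females, and at 1.5-fold 15 were higher and 20 lower in males. With median scaling, 2 members were lower in females, and 1 other pathway gene was higher and 1 lower. Acsl1, the 1 member 2-fold higher in corn oil-treated males, fell below 2-fold under both scalings, normexp, signal without detrending and the mean over probes (0 members each). The mean over probes also left 0 members lower in males and 1 apart between the AAI pools, and 4 other pathway genes higher and 1 lower in females. Other pathway genes higher in females were 1 under 75th percentile scaling, normexp and the authors' table, and those lower in males were 5 without detrending. The median of the members between the corn oil pools, 0.11, was -0.13 under 75th percentile scaling, so that its sign depended on the scaling. The cause was not tested. No called ratio changed sign, and of the members beyond the spread between probes, 15 of 15 in females, 21 of 21 in males and 16 of 17 between the corn oil pools (not Cpt2) kept their sign under all of the alternatives. No paired analysis was possible because each group has 1 array. For the same reason no replicate could be left out. Of the 45 member probes 1 was not well above background on 1 array, so that dim signal limited few values.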
